A study of Homo sapiens with 12 samples.

Results

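DNMT1, UHRF1, UHRF2, DNMT3A, DNMT3B, DNMT3L, HELLS and CDCA7 encode the enzymes that place methyl groups on cytosines of CpG sites and the proteins that keep those marks through cell division. These 8 genes were chosen by name for this function, out of 20033 protein-coding genes of the GRCh38.p14 assembly, and all CpGs measured in each gene span plus 1500 bp on either side were taken. That gave 1838 of the 3689712 CpGs in the table of 5-methylcytosine (5mC) and 1777 of the 3534314 CpGs in the table of 5-hydroxymethylcytosine (5hmC). Of the 1838, 354 lay in the transcription start windows, 1293 in the gene bodies and 191 in neither, called flanks below. Of the 191, 165 belonged to DNMT3B, whose listed start lies inside the gene. Its CpG-dense gene end and the CpGs from there to that start therefore counted as flank. Part of the UHRF1 flank also lay inside its gene span. The cells were SV-HUC-1, a human urothelial epithelial line immortalised with SV40, which is a single line and not primary tissue. One group had received 2,6-dichloro-1,4-benzoquinone (DCBQ), a halogenated quinone formed when drinking water is disinfected, and was collected after 3 days, at a dose that the labels do not give. The control group had received a blank solution for the same 3 days. Each condition had 3 reduced representation bisulfite libraries and 3 oxidative ones, and the tables hold 3 columns per condition, called DCBQ1 to DCBQ3 and Control1 to Control3 below. The question put to these genes was whether their own methylation differed between exposed and control cells. RNA levels were not analysed here.

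DNA methylation is copied after replication by DNMT1, which UHRF1 brings to CpGs that carry a methyl group on the old strand only. New patterns are laid down by DNMT3A and DNMT3B, and the catalytically inactive DNMT3L assists them in germ cells. HELLS, a chromatin remodeller, and CDCA7, the zinc-finger protein that activates it, open packed chromatin for this machinery. TET enzymes oxidise 5mC to 5hmC, which DNMT1 copies poorly. In most human genes a CpG-rich start is free of 5mC while the body of the gene is methylated.

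The tables give a level per CpG without its read depth, so the precision of a single CpG is unknown and levels are given as percent with the spread over 3 samples. Across all CpGs of the table, mean 5mC was 54.1% in DCBQ samples and 54.5% in controls, and mean 5hmC was 3.47% in DCBQ samples and 3.37% in controls. Levels correlated between samples at 0.968 to 0.972 for 5mC, but only at 0.197 to 0.231 for 5hmC. The samples thus agreed little on which CpGs carry 5hmC, which limits every 5hmC value below. The labels do not state that separate cultures were used, so a p-value here speaks only of the variation among these samples, part or all of which may be technical. The epithelial label was checked by 5mC at the start windows of marker genes. The 6 of 7 epithelial genes with at least 5 CpGs there (EPCAM, CDH1, KRT18, KRT19, ESRP1 and GRHL2) read 0.977% to 10.3% in DCBQ samples and 1.16% to 10.9% in controls. The 3 of 6 leukocyte and endothelial genes measured (CD3D, PECAM1 and CDH5) read 77.4% to 86.4% in DCBQ samples and 80.4% to 85.6% in controls. At the leukocyte gene CD3D (7 CpGs) the groups did not overlap, at 77.4% ± 3.21 in DCBQ samples and 84.1% ± 1.48 in controls, a difference of -6.74 points, while at PECAM1 and CDH5 they overlapped, with differences of 0.805 and 1.46 points. The part of these markers in the results below was not tested.

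The 8 genes as a whole carried slightly less 5mC in DCBQ-treated cells, and so did the table as a whole. Over the 1838 CpGs, mean 5mC was 53.7%, 54.0% and 53.6% in DCBQ1 to DCBQ3, against 54.3%, 54.4% and 54.3% in Control1 to Control3. Every DCBQ sample lay below every control, and the difference was -0.567 percentage points (SE 0.114). With 3 samples against 3 an exact permutation test cannot give a p below 0.1, and it gave 0.1 here (two-sided). Over all CpGs of the table the difference was -0.416 points. When each sample was centred on its own genome-wide mean, the difference of the 8 genes came to -0.151 points and the exact permutation p was 0.3. The CpGs of the gene bodies accounted for most of it, at 67.4% ± 0.28 in DCBQ samples and 68.1% ± 0.0307 in controls (SD, n = 3 each), again without overlap. In the start windows the groups overlapped, at 16.2% ± 0.326 in DCBQ samples and 16.5% ± 0.346 in controls. Mean 5hmC over 1777 CpGs was 2.75% ± 0.337 in DCBQ samples and 2.60% ± 0.166 in controls, with groups that overlapped (exact permutation p = 0.6).

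The CpGs measured in the start windows of DNMT1, UHRF1 and CDCA7 were close to free of 5mC, and those of DNMT3A, HELLS and UHRF2 were mixed. The end of DNMT3L taken as its start was methylated. A start window ran from 1500 bp before to 500 bp after the first start listed for the gene in RefSeq. It read 1.15% ± 0.228 in DCBQ samples and 1.16% ± 0.444 in controls at DNMT1 (54 CpGs), and 1.25% ± 0.496 in DCBQ samples and 0.888% ± 0.506 in controls at CDCA7 (24 CpGs). UHRF1 read 2.72% ± 0.292 in DCBQ samples and 2.94% ± 0.272 in controls over 58 CpGs. These 3 windows were low in every sample, with group means differing by less than their SDs. However, no CpG was measured before -126 bp at DNMT1 or before -29 bp at CDCA7. At UHRF1 the nearest one before -60 bp lay at -962 bp and averaged 94.6% over the 6 samples. The contrast with DNMT3A, HELLS and UHRF2 thus depends on which upstream CpGs were measured. The promoter sequences of DNMT1 and CDCA7 are shown because their windows held the lowest 5mC, DNMT1 in DCBQ samples and CDCA7 in controls. They are RefSeq sequences of GRCh38.p14, 5′ to 3′ on the strand of the gene, from 250 bases before to 50 after the start, and capitals mark the CpGs that the 5mC table measured. The DNMT1 stretch is chr19:10194904-10195203 on the minus strand, with 30 CpGs of which 21 were measured, and the CDCA7 stretch is chr2:173354622-173354921 on the plus strand, with 20 CpGs of which 11 were measured. The median promoter in the same table, of 27305, holds 14 CpGs.
DNMT1: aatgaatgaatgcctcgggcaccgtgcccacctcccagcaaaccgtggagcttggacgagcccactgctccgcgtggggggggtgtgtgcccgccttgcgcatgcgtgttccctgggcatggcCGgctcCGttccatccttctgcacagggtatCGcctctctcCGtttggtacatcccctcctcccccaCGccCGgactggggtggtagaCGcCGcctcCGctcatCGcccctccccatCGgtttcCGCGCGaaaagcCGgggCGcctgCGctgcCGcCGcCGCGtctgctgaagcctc
CDCA7: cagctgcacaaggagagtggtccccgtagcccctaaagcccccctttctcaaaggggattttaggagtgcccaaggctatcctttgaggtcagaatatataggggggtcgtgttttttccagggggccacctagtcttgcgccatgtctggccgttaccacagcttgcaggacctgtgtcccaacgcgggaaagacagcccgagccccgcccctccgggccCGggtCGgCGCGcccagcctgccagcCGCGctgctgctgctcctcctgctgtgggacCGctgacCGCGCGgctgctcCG
Over the capitals, mean 5mC was 1.22% ± 0.544 in DCBQ samples and 1.003% ± 0.192 in controls at DNMT1, and 0.845% ± 0.773 in DCBQ samples and 1.03% ± 0.197 in controls at CDCA7. The highest single CpG of the DNMT1 stretch averaged 5.63% in DCBQ samples and 9.4% in controls, and that of the CDCA7 stretch 2.5% in DCBQ samples and 3.63% in controls.

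UHRF1, the hemimethylated-CpG reader that guides DNMT1, has 3 listed starts close together, and all were low. At the second of them, the 39 CpGs measured read 1.09%, 1.12% and 1.14% in DCBQ1 to DCBQ3, against 0.851%, 0.818% and 0.546% in Control1 to Control3. The DCBQ samples lay above the controls there, by 0.379 points, which was not tested. Among all 5mC start windows, which are longer, 11.9% had non-overlapping groups. The 2 kb window of this second start read 1.24% in DCBQ samples and 1.17% in controls over 108 CpGs. The other 2 UHRF1 promoters overlapped between groups, at 1.22% and 1.12% in DCBQ samples and 1.60% and 1.38% in controls. The stretch of the second start is chr19:4909894-4910193 on the plus strand and is shown, after its values were seen, as the promoter of UHRF1 with the most measured CpGs.
UHRF1, second start: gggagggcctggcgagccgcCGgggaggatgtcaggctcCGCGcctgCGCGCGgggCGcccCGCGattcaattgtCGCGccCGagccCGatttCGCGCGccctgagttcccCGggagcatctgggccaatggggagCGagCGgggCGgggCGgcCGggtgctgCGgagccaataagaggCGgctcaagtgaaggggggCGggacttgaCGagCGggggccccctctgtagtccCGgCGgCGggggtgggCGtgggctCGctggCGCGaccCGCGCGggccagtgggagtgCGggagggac
This sequence holds 40 whole CpGs, 38 of them measured, and its last base is the C of the 39th measured CpG. The first listed start, inside the gene span, anchors the UHRF1 window, and the neighbouring genes ARRDC5 and MIR4747 overlap the stretch analysed.

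DNMT3A, which writes new methylation, had unmethylated upstream starts and a methylated internal start, and neither differed between the groups beyond the spread. At the second listed start, 39 CpGs averaged 1.58% ± 0.567 in DCBQ samples and 1.63% ± 0.394 in controls. At an internal start much further into the gene, 15 CpGs averaged 83.3% ± 2.9 in DCBQ samples and 82.9% ± 1.12 in controls. Both are GC-rich, at 83% and 78.3% G or C. They are shown, after their values were seen, because they stand at opposite ends of the 5mC scale within a single gene. The unmethylated stretch is chr2:25341876-25342175 and the methylated one chr2:25252266-25252565, both on the minus strand.
DNMT3A, second start: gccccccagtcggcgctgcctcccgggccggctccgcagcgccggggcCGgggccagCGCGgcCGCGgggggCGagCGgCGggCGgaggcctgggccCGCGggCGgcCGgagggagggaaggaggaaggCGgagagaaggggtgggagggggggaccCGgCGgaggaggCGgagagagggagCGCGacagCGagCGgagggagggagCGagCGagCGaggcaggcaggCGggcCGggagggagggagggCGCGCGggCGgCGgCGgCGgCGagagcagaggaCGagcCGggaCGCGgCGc
DNMT3A, internal start: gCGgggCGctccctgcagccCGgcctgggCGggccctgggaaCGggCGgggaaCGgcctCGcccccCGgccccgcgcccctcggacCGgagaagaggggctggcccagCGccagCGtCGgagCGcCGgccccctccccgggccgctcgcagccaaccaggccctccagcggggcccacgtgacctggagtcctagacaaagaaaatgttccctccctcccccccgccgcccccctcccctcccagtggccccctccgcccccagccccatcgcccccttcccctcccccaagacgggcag
The first sequence holds 46 CpGs, 39 of them measured, and the second 28, of which 15 were measured at its 5′ side. In the 2 kb window of the first listed DNMT3A start, which reaches upstream into methylated DNA, 66 CpGs averaged 11.2% ± 0.615 in DCBQ samples and 10.9% ± 0.188 in controls.

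Around the start, neighbouring measured CpGs formed a run of low 5mC at the 6 genes examined, DNMT3B and DNMT3L being left out for want of a usable listed start. The runs can hold stretches without a measured CpG. At HELLS no CpG was measured between -751 and 0 bp, so its promoter with 22 CpGs was not seen. At UHRF1 none was measured between 1249 and 2250 bp. Counting neighbouring measured CpGs whose mean over all 6 samples was at or below 20%, the run covered 59 CpGs from -126 to 531 bp of the DNMT1 start and 151 CpGs from -59 to 1608 bp at DNMT3A. It covered 123 CpGs from -60 to 2710 bp at UHRF1, 115 CpGs from -40 to 1102 bp at UHRF2, 32 CpGs from -951 to 757 bp at HELLS and 49 CpGs from -29 to 705 bp at CDCA7. The groups overlapped in all 6 runs. The largest of the 6 differences was -0.317 points at HELLS, with 1.53% ± 0.172 in DCBQ samples and 1.85% ± 0.321 in controls.

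**Figure D1:**
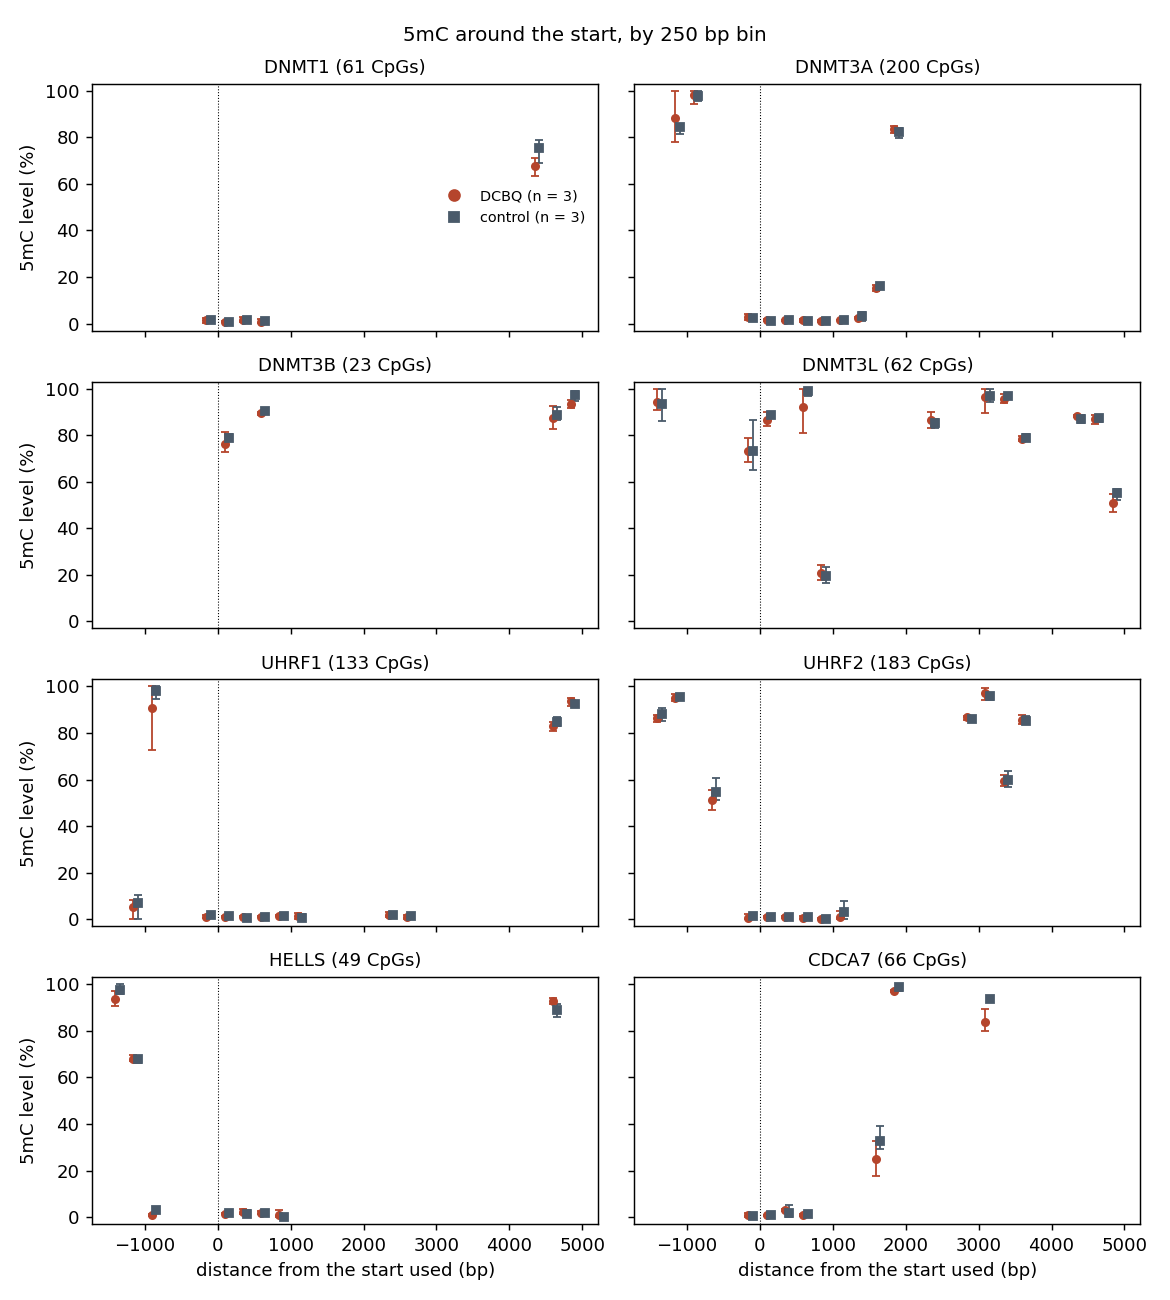
Mean 5mC level (%) in 250 bp bins from 1500 bp before to 5000 bp after the start used for each of the 8 genes, with DCBQ samples as red circles and controls as grey squares, and bars from the lowest to the highest of 3 samples. DNMT1, UHRF1, UHRF2, HELLS, CDCA7 and DNMT3A sit near 0 just after the start in both groups, whereas DNMT3L and the listed start of DNMT3B do not.

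UHRF2, a relative of UHRF1, was partly methylated upstream and low from -40 bp on. Where this changed is not known, as no CpG was measured between -530 and -40 bp. The 24 CpGs from -750 to -501 bp averaged 51.3% ± 4.26 in DCBQ samples and 54.5% ± 5.21 in controls, while the 115 CpGs of the low run after it averaged 0.837% ± 0.348 in DCBQ samples and 0.913% ± 0.219 in controls. Its window, which spans both sides, read 26.6% ± 0.881 in DCBQ samples and 27.4% ± 1.12 in controls over 101 CpGs. HELLS had its change between the CpG at -1022 bp, which averaged 66.4% over the 6 samples, and the low run starting at -951 bp. Its window read 23.7%, 23.9% and 23% in DCBQ1 to DCBQ3, against 24.3%, 24.9% and 23.9% in Control1 to Control3. The groups did not overlap, although the highest DCBQ sample and the lowest control were almost level, and the difference of -0.83 points did not pass limma (SE 0.56, unadjusted p 0.186, adjusted p = 0.861).

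DNMT3L and DNMT3B needed separate treatment. RefSeq's promoter table has no entry for DNMT3L, so the gene end with more measured CpGs was used, and it was methylated in both groups, at 81.6% ± 2.95 in DCBQ samples and 82.2% ± 5.69 in controls over 13 CpGs. For DNMT3B the table lists a start inside the gene, whose window held 2 measured CpGs and was not tested. At the lower-coordinate end of the DNMT3B span, chr20:32760885-32762885, 100 CpGs averaged 7.05% ± 0.456 in DCBQ samples and 7.65% ± 0.22 in controls. The groups overlapped there, and most of its CpGs lay in a tile of 102 CpGs that read 2.59% ± 0.276 in DCBQ samples and 2.95% ± 0.193 in controls. Between that end and the listed start, 63 CpGs averaged 48.1% ± 1.59 in DCBQ samples and 49.7% ± 0.254 in controls, without overlap.

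No start window of these genes passed the test for 5mC. limma called 0 of the 7 measured windows at an adjusted p of 0.05, and 0% of all 15399 windows, of which 1022 (6.64%) had an unadjusted p under 0.05. None of the 7 did. The groups did not overlap in 1 of 7, against 11.9% of all windows, and the mean was lower in DCBQ samples in 5 of 7, against 59.6%. The adjusted p-values of the 7 ran from 0.861 to 0.997 (limma).

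In the gene bodies, 5mC averaged lower in DCBQ samples in all 8 genes, by -3.33 to -0.206 points, with DNMT1 and CDCA7 showing the largest differences and none passing the test. Lower means were also the rule elsewhere, in 69.5% of 16525 gene bodies. limma called 0 of the 8 at an adjusted p of 0.05 and 0% of all bodies. An unadjusted p under 0.05 was found in 2 of 8, against 8.54% of all bodies, and non-overlapping groups in 3 of 8, against 15.8%. The median difference was -0.496 points in the 8 genes and -0.392 points over all bodies. Centring each sample on its genome-wide mean moved the median of all bodies to 0.02 points, and the differences of DNMT3A, UHRF2 and HELLS then lay above 0.

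The body of DNMT1, the maintenance methyltransferase, read 80.4%, 81.1% and 82.1% in DCBQ1 to DCBQ3, against 83.2%, 83.0% and 83.9% in Control1 to Control3 (137 CpGs). Every DCBQ sample lay below every control. The difference was -2.15 points (limma, SE 0.609, unadjusted p 0.0126, adjusted p = 0.568). A stretch of 5 CpGs 33953 to 34952 bp into the gene, the tile chr19:10160001-10161000, differed most, at 72.0%, 68.9% and 87.7% in DCBQ1 to DCBQ3 and 89.2%, 91.6% and 97.5% in Control1 to Control3. Without it, the other 132 CpGs of the DNMT1 body averaged 81.4% ± 0.598 in DCBQ samples and 83.0% ± 0.375 in controls, still without overlap. Within that tile the difference lay mainly at the CpG at position 10160091.

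CDCA7, whose product activates HELLS, read 38.3%, 37.3% and 39.9% in the body in DCBQ1 to DCBQ3, against 42.2%, 41.6% and 41.7% in Control1 to Control3 (46 CpGs). The groups did not overlap, and the difference was -3.33 points (limma, SE 0.721, unadjusted p 0.00366, adjusted p = 0.495). This body is short and mixed. Its 25 CpGs with a mean at or below 20% averaged 0.969% ± 0.326 in DCBQ samples and 1.23% ± 0.139 in controls, and its other 21 averaged 83.2% ± 3.1 in DCBQ samples and 90.2% ± 0.968 in controls. The difference lay in the methylated CpGs, and above all in 7 of them 3129 to 4128 bp after the start, the tile chr2:173358001-173359000. That tile read 79.4%, 77.6% and 94.8% in DCBQ1 to DCBQ3, against 99.8%, 99.4% and 98.6% in Control1 to Control3. Outside it, 39 CpGs averaged 30.3% ± 0.544 in DCBQ samples and 31.5% ± 0.373 in controls, a difference of -1.17 points. In 4 of its CpGs, from position 173358060 to 173358116, all 3 controls read 100% and the DCBQ samples together averaged 74.0% ± 16.3. DCBQ1 to DCBQ3 averaged 65.0%, 64.3% and 92.85% over them. The depth at these neighbouring CpGs is unknown, and DCBQ2 read the same 71.4% at 173358060, 173358068 and 173358072. Whether they rest on the same few reads was not tested. Those 4 CpGs are absent from the 5hmC table, so the CDCA7 body difference over CpGs in both tables was -1.17 points as well.

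**Figure D2:**
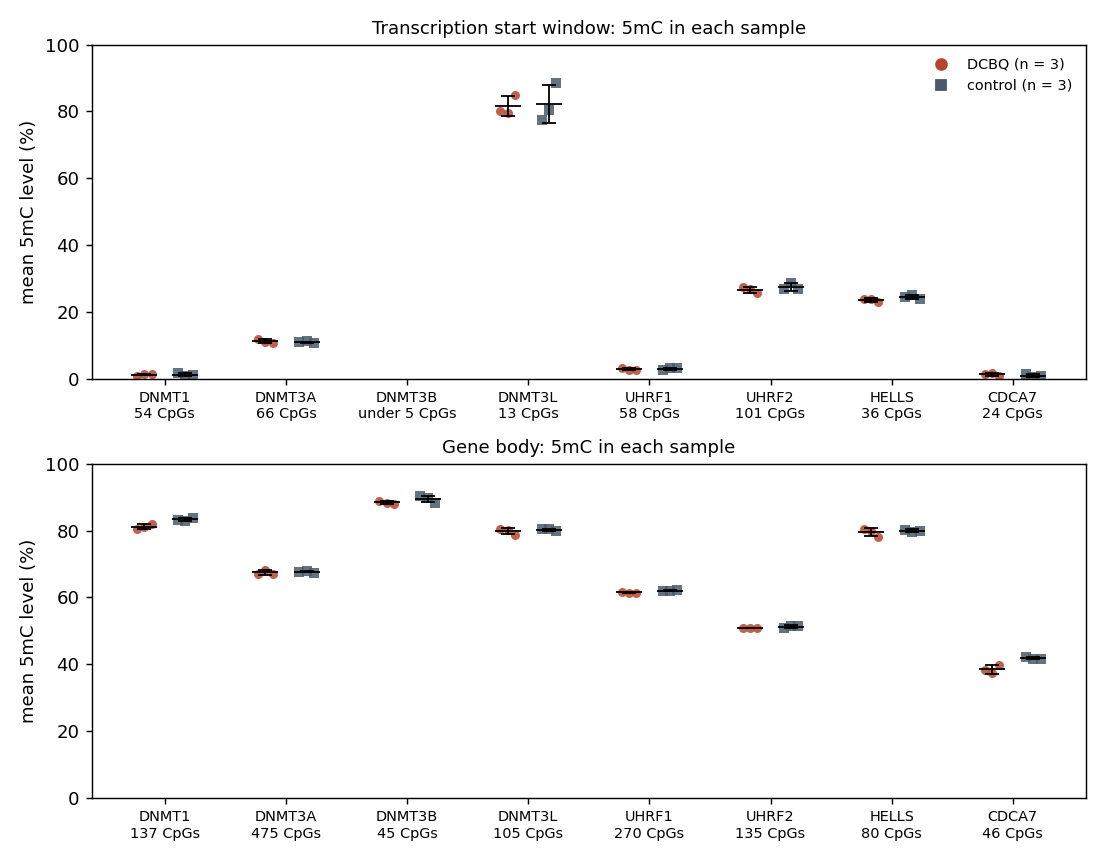
Mean 5mC level (%) of each sample in the start window (upper panel) and gene body (lower panel) of the 8 genes, with DCBQ samples as red circles left of controls as grey squares, and black bars for the mean and SD of 3 samples. The DNMT1 body averages 81.2% in DCBQ samples and 83.4% in controls, and the CDCA7 body 38.5% in DCBQ samples and 41.8% in controls, while the other bodies differ by about a point or less.

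The remaining bodies differed by about a point or less. UHRF1 read 61.7%, 61.5% and 61.3% in DCBQ1 to DCBQ3, against 61.9%, 61.9% and 62.2% in Control1 to Control3, without overlap, over 270 CpGs. That difference was -0.499 points (limma, SE 0.404, adjusted p = 0.739), and with each sample centred on its genome-wide mean it was -0.0827 points (limma adjusted p = 0.986). DNMT3B, the other writer of new methylation, had the most methylated body as cut here, at 88.5% ± 0.465 in DCBQ samples and 89.5% ± 1.01 in controls. That body began after the listed start inside the gene and held 45 of its 212 CpGs. The less methylated 63 CpGs between the gene end and that start, given above, were not part of it. DNMT3A read 67.5% ± 0.744 in DCBQ samples and 67.7% ± 0.212 in controls over 475 CpGs, the most of any of the 8 genes. DNMT3L read 79.8% ± 0.909 in DCBQ samples and 80.3% ± 0.313 in controls, HELLS 79.6% ± 1.17 in DCBQ samples and 79.9% ± 0.423 in controls, and UHRF2 50.8% ± 0.11 in DCBQ samples and 51.2% ± 0.427 in controls. In these 5 the groups overlapped.

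Cut into 1 kb tiles with at least 5 CpGs, the 8 genes gave 112 tiles for 5mC, none of them called. The groups did not overlap in 20 tiles, which is 17.9% against 11.5% of all 210465 tiles. Of the 20, 14 were lower and 6 higher in DCBQ samples. Of the 24183 non-overlapping tiles over the genome, 17061 (8.11% of all tiles) were lower and 7122 (3.38%) higher. An unadjusted p under 0.05 (limma) was found in 7.14% of the 112, against 6.2% of all, and an adjusted p under 0.05 in 0% of all. The median tile difference was -0.445 points in these genes and -0.331 over all tiles. Apart from those of DNMT1 and CDCA7, tile differences stayed within 6 points. A DNMT3A tile of 7 CpGs 96483 to 97482 bp after its start averaged 82.7% ± 2.08 in DCBQ samples and 77.7% ± 1.68 in controls, a difference in the other direction. A UHRF1 tile of 9 CpGs 22500 to 23499 bp after its start averaged 68.7% ± 2.46 in DCBQ samples and 73.8% ± 2.86 in controls, and a HELLS tile of 7 CpGs 4213 to 5212 bp after its start 93.0% ± 1.32 in DCBQ samples and 89.0% ± 2.69 in controls. The groups did not overlap in any of these 3 tiles.

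**Figure D3:**
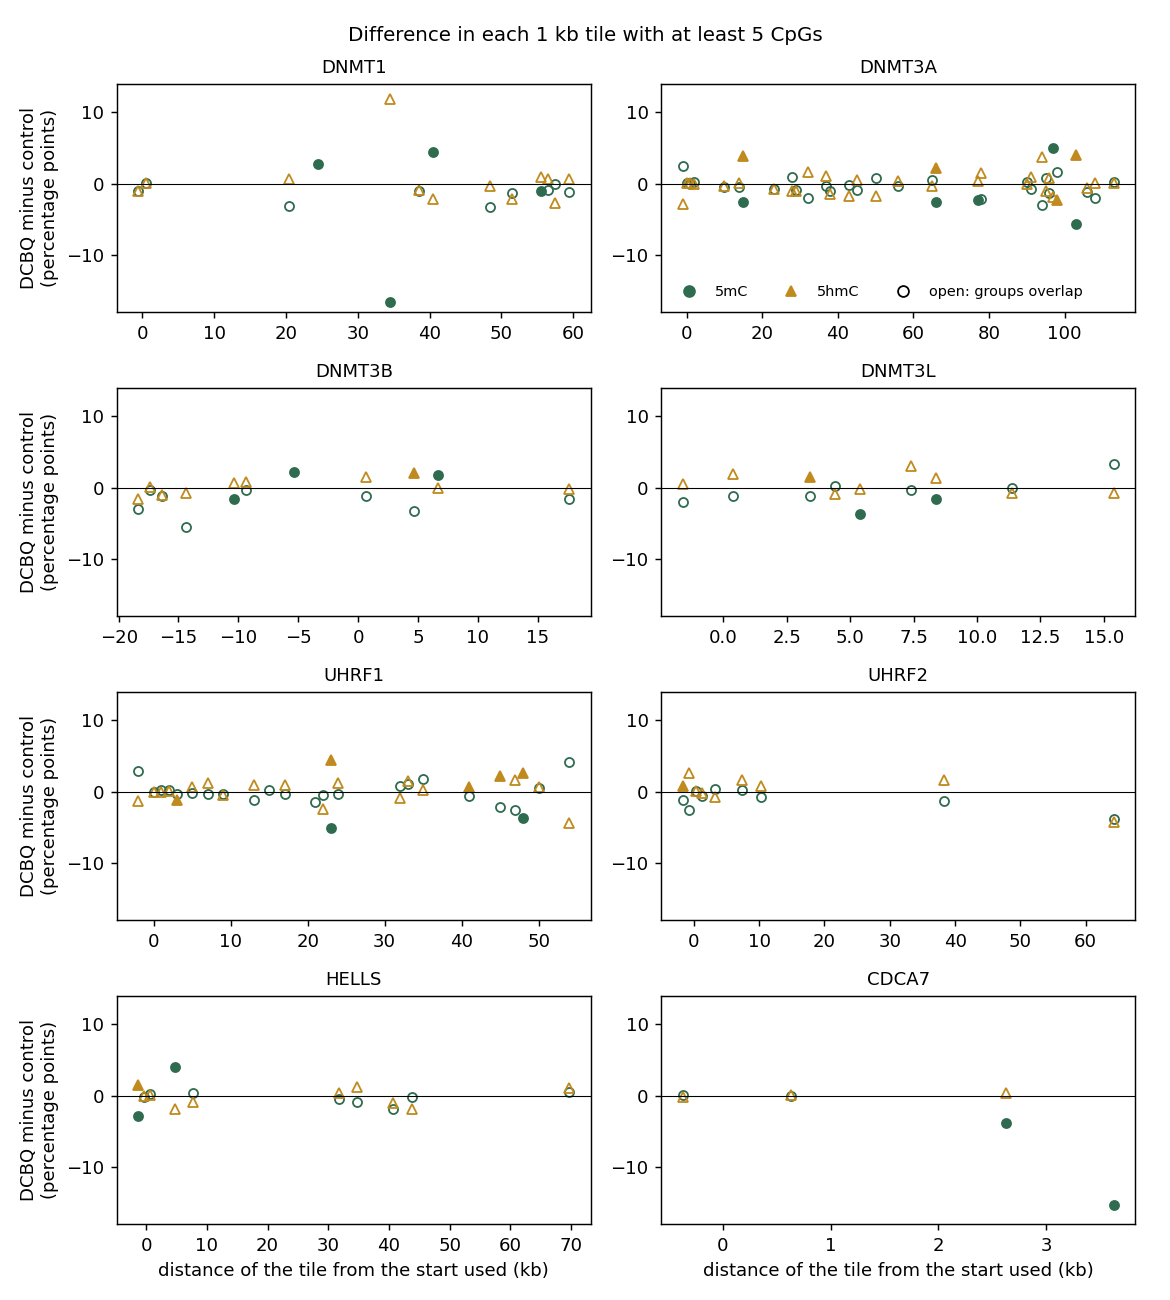
Difference in level, DCBQ minus control in percentage points, for each 1 kb tile with at least 5 CpGs against its distance from the start used (kb), for 5mC (green circles) and 5hmC (ochre triangles), filled where the 3 DCBQ and 3 control samples do not overlap. A DNMT1 tile at -16.6 points and a CDCA7 tile at -15.3 points stand below the rest for 5mC, and a single DNMT1 tile reaches 11.8 points for 5hmC.

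In the flanks of UHRF1, mean 5mC was higher and mean 5hmC lower in DCBQ samples. Its 23 flank CpGs averaged 81.3% ± 1.97 5mC in DCBQ samples and 77.4% ± 1.97 in controls, with overlapping groups. 5hmC at the same CpGs read 3.15%, 4.13% and 4.43% in DCBQ1 to DCBQ3, against 7.73%, 5.85% and 8.75% in Control1 to Control3, without overlap. The flank as a whole was not tested, and 9.94% of all 5hmC 1 kb tiles had non-overlapping groups. Of these CpGs, 14 lay just past the higher-coordinate end of the gene, where 5mC was 76.1% ± 1.65 in DCBQ samples and 72.0% ± 3.19 in controls, and 5hmC 3.79% ± 1.18 in DCBQ samples and 8.12% ± 3.14 in controls. At these 14 CpGs the groups overlapped in both marks. As a 1 kb tile they did not pass limma, at 4.10 points for 5mC (SE 2.01, unadjusted p 0.0821, adjusted p = 0.828) and -4.33 points for 5hmC (SE 2.04, unadjusted p 0.0619, adjusted p = 0.973). The other 9 lay before the start window and were not tested. Their 5mC was 89.3% ± 2.65 in DCBQ samples and 85.8% ± 0.45 in controls. Their 5hmC was 4.08% ± 0.223 in DCBQ samples and 6.39% ± 1.65 in controls, both marks without overlap.

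5hmC was low throughout the 8 genes, and among start windows and bodies 2 had non-overlapping groups, both higher in DCBQ samples. At the HELLS start window it read 1.94%, 2.58% and 2.37% in DCBQ1 to DCBQ3, against 1.88%, 1.07% and 1.05% in Control1 to Control3 (36 CpGs). The lowest DCBQ sample was only just above the highest control, and the difference of 0.963 points did not pass limma (SE 0.404, unadjusted p 0.0416, adjusted p = 0.956). Over the 21 CpGs within 500 bp of the HELLS start the difference was 0.185 points (limma, SE 0.34, unadjusted p 0.6, adjusted p = 0.989). The DNMT3B body read 2.74%, 3.36% and 3.34% in DCBQ1 to DCBQ3, against 1.32%, 2.62% and 2.70% in Control1 to Control3, a difference of 0.934 points (limma, SE 0.477, unadjusted p 0.091, adjusted p = 0.952). Control1 stood below the other controls there, and without it the difference came to 0.486 points (limma, SE 0.429, unadjusted p 0.301, adjusted p = 0.992). This body holds only the 43 CpGs after the listed start inside the gene. The 163 flank CpGs of DNMT3B went the other way, at 1.72% ± 0.306 in DCBQ samples and 1.90% ± 0.122 in controls. Over its whole stretch 5hmC was 2.05% ± 0.163 in DCBQ samples and 2.00% ± 0.0965 in controls, with overlapping groups. limma called 0 of 7 start windows and 0 of 8 bodies, and 0% of the 15287 windows and 0% of the 16388 bodies tested. At an unadjusted p under 0.05 there were 1 window and 0 bodies, against 4.91% of all windows and 5.29% of all bodies. Groups did not overlap in 1 of 7 windows, against 9.95%, and in 1 of 8 bodies, against 9.9%.

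Among the start windows, 5hmC was lowest at CDCA7, at 0.485% ± 0.413 in DCBQ samples and 0.561% ± 0.462 in controls, and at DNMT1, at 0.659% ± 0.127 in DCBQ samples and 0.733% ± 0.225 in controls. The DNMT3L end was the highest and most variable, at 8.7% ± 3.04 in DCBQ samples and 6.65% ± 5.23 in controls over 10 CpGs, with Control3 at 1%. UHRF2 followed, at 3.74% ± 1.35 in DCBQ samples and 2.87% ± 1.18 in controls. In the bodies 5hmC ran from 1.09% to 3.81% in DCBQ samples and from 0.892% to 3.78% in controls, lowest at CDCA7 in both. The 1 kb tiles held no call either: of 107, the groups did not overlap in 12.1%, against 9.94% of all 201935 tiles, and 0% of all were called. Of those 13 tiles, 11 were higher and 2 lower in DCBQ samples. Of the 20072 non-overlapping tiles over the genome, 11207 (5.55% of all tiles) were higher and 8865 (4.39%) lower. An unadjusted p under 0.05 was found in 5.61% of the 107, against 4.83% of all (limma). The tile with the highest 5hmC in controls was in UHRF2, 63802 to 64801 bp after its start, where 5 CpGs read 4.85%, 12.3% and 1.43% in DCBQ samples and 24.8%, 1.56% and 5.1% in controls. A single control carried that value.

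In these genes, as across the table, 5hmC was highest at CpGs of intermediate 5mC. CpGs with a mean 5mC between 20% and 80% held the most, at 6.37% ± 0.932 5hmC in DCBQ samples and 6.41% ± 0.922 in controls over 307 CpGs. Those at or below 20% held 1.06% ± 0.0674 in DCBQ samples and 1.05% ± 0.117 in controls (667 CpGs). In the 803 CpGs at or above 80% 5mC, 5hmC was 2.77% ± 0.36 in DCBQ samples and 2.44% ± 0.0635 in controls, without overlap. The same class over the whole table read 3.06% ± 0.125 in DCBQ samples and 2.86% ± 0.0412 in controls, also without overlap. Among them, the groups were apart in that class at UHRF2, at 2.44% ± 0.347 in DCBQ samples and 1.72% ± 0.143 in controls over 76 CpGs.

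Of single CpGs, none of the 1656 CpGs of these genes whose 5mC varied passed the test, which asked for a limma adjusted p of 0.05 and at least 10 points. Over the genome 0% of 3419211 did. Groups did not overlap at 121 of the 1656 (7.31%), against 8.02% of all, and 4.47% had an unadjusted p under 0.05, against 4.69%. For 5hmC, 0 of 1515 varying CpGs passed, against 9.51e-05% of 3153081, which is 3 CpGs, none of them in these genes. Groups did not overlap at 74 of the 1515 (4.88%), against 6.04% of all, and 1.25% had an unadjusted p under 0.05, against 1.98%. By their mean in controls, 46.4% of the 1838 CpGs were at or above 80% 5mC and 36.9% at or below 20%, against 41.8% and 31.9% of the table.

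For each gene and mark, the CpG with the smallest p among those at least 10 points apart with non-overlapping groups was named, so the size of these differences reflects the choice. At DNMT1 this was position 10160091 of chromosome 19, with 5mC at 30%, 21.4% and 63.6% in DCBQ1 to DCBQ3, against 100%, 92.9% and 100% in Control1 to Control3. 5hmC at the same base read 40%, 66.7% and 9.09% in DCBQ1 to DCBQ3, against 0% in all 3 controls. The DCBQ sample with the most 5mC there had the least 5hmC, but the marks are not independent readings (limma adjusted p = 0.863 for 5mC and 0.781 for 5hmC). At CDCA7 it was position 173358068 of chromosome 2, with 5mC at 40%, 71.4% and 71.4% in DCBQ samples and 100% in every control (limma adjusted p = 0.898).

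The named CpGs of the other genes differed by less. At DNMT3B, position 32784827 of chromosome 20 averaged 81.5% ± 8.82 5mC in DCBQ samples and 100% in each control, with 5hmC at 13.1% ± 1.03 in DCBQ samples and 0% in each control. UHRF1 at position 4957976 averaged 82.1% ± 4.63 5mC in DCBQ samples and 96.4% ± 3.46 in controls, and HELLS at 94544341, which is -1447 bp from its start, 87.7% ± 5.36 in DCBQ samples and 98.2% ± 3.06 in controls. DNMT3A at 25270938 averaged 84.9% ± 1.39 in DCBQ samples and 97.6% ± 4.1 in controls. DNMT3L at 44250786 went the other way, with 5mC at 100% in each DCBQ sample and 87.7% ± 2.16 in controls. UHRF2 had no such CpG. Other CpGs were named for 5hmC at UHRF1 and DNMT3A. UHRF1 at 4954788 had 27.5% ± 9.01 5hmC in DCBQ samples and 2.1% ± 1.84 in controls. DNMT3A at 25247789 had 12.4% ± 6.63 in DCBQ samples and 0% in each control. Their 5mC was lower in DCBQ samples, also without overlap. It averaged 56.8% ± 13.9 in DCBQ samples and 83.7% ± 4.67 in controls at UHRF1. At DNMT3A it averaged 80.9% ± 6.35 in DCBQ samples and 95.5% ± 4.55 in controls. Of the 7 CpGs named for 5mC, 6 had a 5hmC value, and at these 6 it differed in the opposite direction. Both tables come from the same libraries of a condition, and the derivation of each mark is not given here, so the marks are not independent readings.

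**Figure D4:**
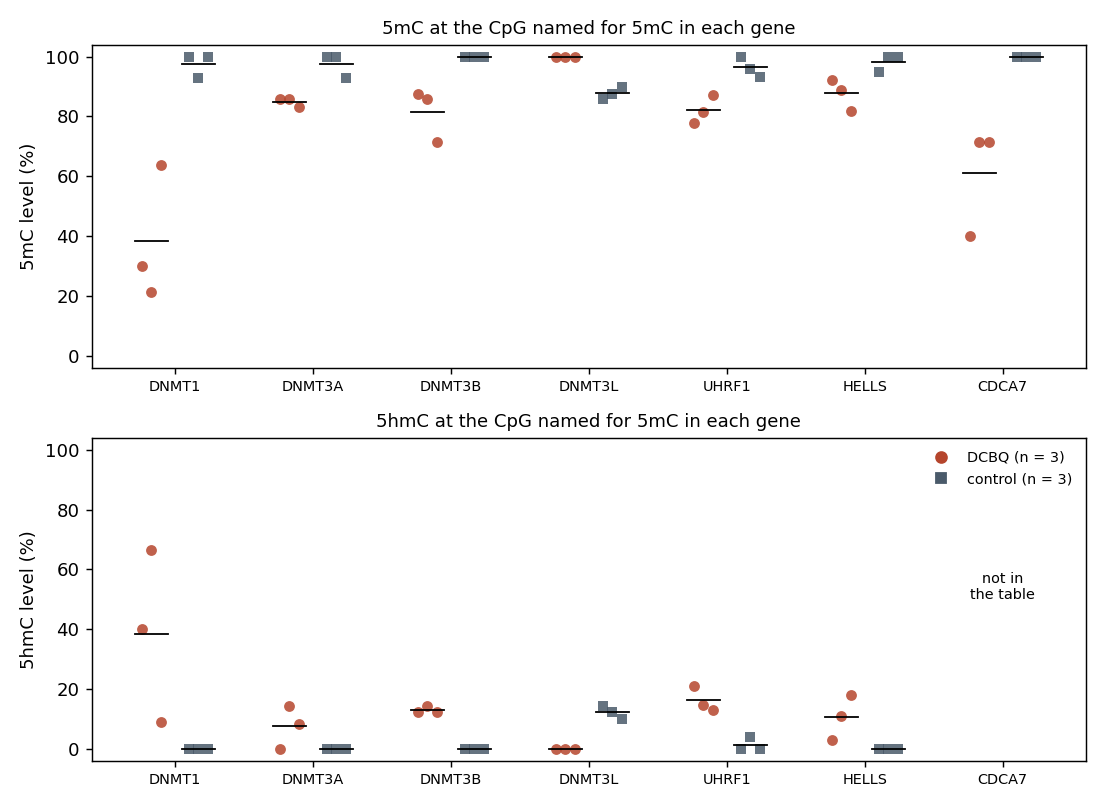
5mC (upper panel) and 5hmC (lower panel) level (%) of each sample at the CpG named for 5mC in 7 of the 8 genes, with DCBQ samples as red circles left of controls as grey squares, and black bars for group means. These CpGs were chosen for their 5mC difference, which is largest at DNMT1 (38.3% in DCBQ samples, 97.6% in controls), and the CDCA7 CpG is not in the 5hmC table.

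A few CpGs carried 5hmC in every sample. At UHRF2, -647 bp from the start, 5hmC read 25%, 15% and 28.6% in DCBQ1 to DCBQ3, against 18.2%, 12% and 22.2% in Control1 to Control3, with mean 5mC at 27.3% in DCBQ samples and 30.3% in controls. At DNMT3L, -54 bp from the gene end used, it read 12.5%, 40% and 20% in DCBQ1 to DCBQ3, against 22.2%, 16.7% and 10% in Control1 to Control3. At DNMT3A, 97204 bp after the start, it read 9.09%, 14.3% and 12.5% in DCBQ1 to DCBQ3, against 17.6%, 15.4% and 27.3% in Control1 to Control3. The groups overlapped at the first 2 of these CpGs, and at the DNMT3A CpG the DCBQ samples lay below the controls. These CpGs were picked as those with the highest value in their lowest sample, so their level is a description.

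Genes that work with these 8 were taken from 5 lists with 68 genes in all, chosen with earlier results of these data known. limma called none of them in either mark at the start or in the body. For 5mC in the body, the groups did not overlap in 2 of 8 readers of methylated CpGs, 1 of 11 replication-fork genes and partners of DNMT1 or UHRF1, and 5 of 16 genes of the histone marks that guide methylation. The same count was 1 of 11 for other regulators of methylation and 2 of 17 for the supply of methyl groups, and 15.8% of all bodies had non-overlapping groups. Body means were lower in DCBQ samples in 7 of 8, 9 of 11, 13 of 16, 7 of 11 and 11 of 17 genes of these lists, against 69.5% of all bodies. An unadjusted p under 0.05 there was found for 2 fork genes or partners and 2 methyl supply genes, and for none of the other 3 lists. The medians ran from -1.14 points in the readers to -0.18 points in the methyl supply. TRIM28, a corepressor that recruits histone methylation, read 23.9% ± 0.967 at the start in DCBQ samples and 26.5% ± 0.218 in controls (limma, -2.54 points, unadjusted p 0.00723, adjusted p = 0.637). MTHFD1, an enzyme of folate-dependent one-carbon metabolism, read 80.4% ± 1.14 in the body in DCBQ samples and 83.7% ± 0.662 in controls (limma, -3.32 points, unadjusted p 0.00414, adjusted p = 0.495). ZBTB24, which activates CDCA7 transcription, read 1.52% ± 0.349 at the start in DCBQ samples and 0.917% ± 0.216 in controls, higher in DCBQ samples (limma adjusted p = 0.738). PCNA, the sliding clamp to which DNMT1 binds, read 3.53% ± 0.102 at the start in DCBQ samples and 3.93% ± 0.0499 in controls, without overlap (limma adjusted p = 0.788). HAT1, which acetylates new histones, averaged 64.7% ± 0.518 in the body in DCBQ samples and 63.1% ± 0.136 in controls, higher in DCBQ samples (limma adjusted p = 0.568).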

How the data were processed

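The tables deposited by the authors hold, for each CpG, the modified fraction (0 to 1), 1 table for 5mC and 1 for 5hmC with 6 columns each. Per the file names, strands were merged and CpGs had at least 5 reads. The submitters' processing notes name build hg38 with cutadapt, Trim Galore and BSMAP 2.90. Their settings and the formula behind each mark are not given here. Depth per CpG is unknown, so no counting interval is given. Column names match both libraries of a condition and number, so columns were assigned to conditions. No column was left out.

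Gene spans and starts came from RefSeq tables of GRCh38.p14. 15841 of the 20033 genes had a listed start, and for the other 4192, DNMT3L among them, the gene end with more measured CpGs was used. Levels of CpGs were averaged per sample over start windows, gene bodies (500 bp after the start to the other gene end) and tiles of 1 kb, at a minimum of 5 CpGs, and expressed as percent. Units and single CpGs were fitted over the whole genome with limma 3.58.1 in R 4.3.3 (lmFit, eBayes with a trend), with Benjamini-Hochberg adjustment over all units and a threshold of 0.05, for single CpGs also 10 points. The code was tested on simulated data. Means over the 8 genes were tested by exact permutation of the samples (two-sided, 20 relabellings). Errors are SD over 3 samples or SE from limma, and the SE of the pooled means comes from the group SDs. The members and lists were chosen with earlier results of these data known. Named were, for each gene and mark, the CpG with the smallest p among those 10 points apart without overlap and the tile with the smallest p, and of each list the 2 genes with the smallest p for 5mC at the start and in the body, of which 5, picked after their values were seen, are printed. The tile of CDCA7, the stable 5hmC CpGs, and the sequences of UHRF1 and DNMT3A were chosen after their values were seen. Alternatives were other CpG minimums, windows, starts, centring, no trend, a replicate block and leaving out each sample.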

Additional observations from a re-analysis of the deposited data

How the results depend on the processing

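limma called none of the 8 genes under any alternative run, and the lowest adjusted p of any of them was 0.345. Of 30 differences (each gene, mark and unit), 13 kept their direction throughout, among them the lower 5mC of the DNMT1, UHRF1 and CDCA7 bodies and the higher 5hmC of the HELLS start and DNMT3B body. Their size did not always hold: the HELLS start came to 0.185 points with 500 bp each side, the DNMT3B body to 0.486 points without Control1, and the UHRF1 body to -0.0827 points when centred. The DNMT3B body covers only the part after its listed internal start, and over the whole DNMT3B stretch 5hmC differed by 0.0526 points. With 1 sample left out in turn, the 5mC difference ranged from -2.60 to -1.75 points in the DNMT1 body and from -4.02 to -2.72 in the CDCA7 body.

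No shared deviation of same-numbered samples was detected: their deviations correlated at -0.0464 to 0.0152. That does not show whether same-numbered samples were handled together. A fit with the number as a replicate block called 0 start windows and 0 gene bodies in either mark, and 0 single 5hmC CpGs in place of 3. Without the trend it also called 0 of these CpGs, as it did with any 1 sample left out.

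Reversed differences, in points, were these, and the cause was not tested. Centring on the sample mean gave 0.205 at the UHRF1 start and 0.406 at the DNMT1 start for 5mC, and 0.0466, 0.21 and 0.00865 in the HELLS, DNMT3A and UHRF2 bodies. It moved the median of all start windows from -0.096 to 0.32. CpGs in both tables gave 0.104 at the DNMT1 start and 0.00274 in the HELLS body. A window of 500 bp each side gave 0.021 for 5mC at UHRF2, and for 5hmC -0.0797 at UHRF1 and 0.0376 at DNMT3A. The CpG-dense end gave 4.10 for 5mC and -4.33 for 5hmC at UHRF1. Without the tile that moves it most, an alternative chosen after seeing the data, the DNMT3L body came to 0.00147.

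With 1 sample left out, ranges that crossed 0 were -0.0458 to 0.271 for mean 5hmC over all CpGs of the 8 genes (below 0 only without DCBQ3) and, for 5mC starts, -0.14 to 0.247 at DNMT1 and -2.94 to 2.57 at DNMT3L. For 5mC bodies they were -0.635 to 0.033 at DNMT3A, -0.805 to 0.0278 at DNMT3L and -0.832 to 0.29 at HELLS. For 5hmC starts they were -0.302 to 0.177 at CDCA7, -0.147 to 0.0564 at DNMT1 and -0.776 to 4.39 at DNMT3L. For 5hmC bodies they were -0.244 to 0.191 at DNMT3A, -0.392 to 0.732 at DNMT3L, -1.01 to 0.0379 at HELLS and -0.0175 to 0.318 at UHRF2. Depth per CpG is unknown, each group has 3 samples, and some starts are missing from the tables used.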
